A study of Arabidopsis thaliana with 6 samples.

Results

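The mitochondrial genome of Arabidopsis thaliana is represented in the expression tables by 122 of 27655 gene loci, those whose identifier begins with ATMG, each with 1 transcript model. Their RNA was compared between leaves labelled jmj16, the insertion allele jmj16-1 (SAIL_535_F09) in the Col-0 background, and leaves of wild type Col-0, with 1 RNA-seq library per genotype. Both genotypes spent 6 days on plates before transfer to soil, under 16 h light and 8 h dark at 22 °C, and leaves 5 and 6 were taken. Plant age is uncertain, as it is 4 weeks in one label and 5 weeks in another. JMJ16 is a histone demethylase that acts on methylated lysine 4 of histone H3, and the comparison asks how the leaf transcriptome differs when it is disrupted.

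Plant mitochondria keep a small genome of their own that encodes a few subunits of the respiratory chain and ATP synthase, part of the machinery that attaches heme to cytochrome c, and some ribosomal proteins. The other subunits of the same complexes are encoded in the nucleus and imported, so each complex is built from the products of 2 genomes. Mitochondrial transcripts are made by phage-type RNA polymerases and then trimmed, spliced and edited by proteins that are also nuclear-encoded. In Arabidopsis a large copy of the mitochondrial genome lies in the nuclear genome, on chromosome 2, where loci have identifiers beginning AT2G07.

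The jmj16-labelled library held 13844284 estimated read counts and the wild type library 10643186. With 1 library per genotype no difference has a replicate check, no p-value is given, and all intervals are 95% intervals. Those of shares and of single ratios cover counting error only. Those of medians are taken over loci as if these were independent, and they do not cover differences between plants. The locus of JMJ16 itself (AT1G08620, listed as PKDM7D in the reference) had 168 reads in the jmj16-labelled library and 188 in wild type, a log2 ratio of -0.63 (-0.94 to -0.33). Its level therefore does not check the label, since the position of the insertion relative to the reads is not given in the sources used here. The leaf genes RBCS1A, CAB2 and RCA were abundant in both libraries, at 138835, 23156 and 61764 reads in the jmj16-labelled library and 148381, 24725 and 82752 in wild type. The leaf gene CA1 had 5500 reads in the jmj16-labelled library and 15711 in wild type, a log2 ratio of -1.99 (-2.03 to -1.94). The root gene PYK10 had 218 reads in the jmj16-labelled library and 410 in wild type. The seed storage gene CRA1 had 0 reads in the jmj16-labelled library and 23 in wild type.

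RNA of the mitochondrial genome was scarce in both libraries. The 122 loci together had 7130 reads, 0.0515% (0.0503 to 0.0527) of the jmj16-labelled library, and 4725 reads, 0.0444% (0.0431 to 0.0457) of the wild type library. The share was 1.16-fold (1.12 to 1.20) higher in the jmj16-labelled library, and 1.13-fold higher as a share of TPM (the deposited level per transcript length), with 1649 and 1463 TPM. In bulk leaf RNA, more mitochondria or mitochondrion-rich cells and more RNA per mitochondrion cannot be told apart. No locus had the length of a mitochondrial ribosomal RNA gene (0 loci), so these values leave ribosomal RNA out, and whether the libraries were made by poly(A) selection or by rRNA removal is not given in the sources used here.

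Single loci differed far more than the total, and in both directions. Of the 122 loci, 62 reached 20 reads summed over both libraries and are termed measured. The terms higher and lower are used of measured loci that were at least 2-fold apart after TMM scaling and whose counting interval of the ratio excluded 1. By this rule 13 loci (21.0%) were higher in the jmj16-labelled library, against 7.22% of the 17151 loci measured across all genomes, and 11 (17.7%) were lower, against 10.6%. The median log2 ratio of the 62 loci was 0.46 (-0.28 to 0.69), with 37 above 0 and 25 below, against a median of 0.02 over all measured loci. Their middle 50% spanned 1.64 log2 units, against 0.90 for nuclear loci. Among loci with at least 100 reads the spans were 1.24 for 36 mitochondrial loci and 0.82 for nuclear loci.

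**Figure D1:**
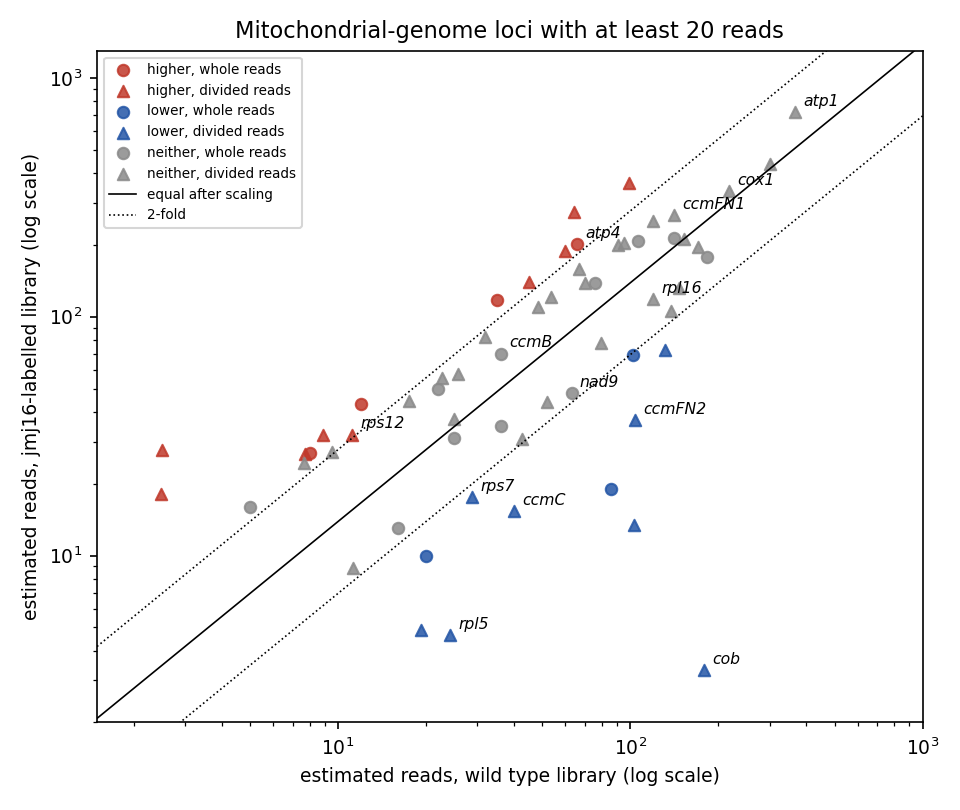
Estimated reads of the 62 measured mitochondrial loci in the jmj16-labelled library (vertical, log scale) against the wild type library (horizontal, log scale), coloured by call, with circles for loci whose reads were whole in both libraries and triangles for loci whose reads were divided. The solid line marks equal levels after scaling and the dotted lines 2-fold. The 13 higher loci lie above the upper dotted line and the 11 lower loci below the lower one, with cob farthest away.

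Most measured mitochondrial loci had reads that were divided with other transcripts. The quantifier splits a read that fits several transcripts, which leaves fractions. A whole number (within 0.001) in both libraries thus marks a locus with no visible split. It does not show that the reads fit no other transcript, since shared reads can all be given to a single transcript. Only 18 of the 62 measured mitochondrial loci (29.0%) had whole reads, against 74 of 87 chloroplast loci (85.1%) and 6048 of 8714 nuclear loci with a single transcript (69.4%). For 9 of the 44 loci with divided reads, exactly 1 other divided locus among the ATMG and AT2G07 loci completed the reads. The summed reads of each pair were whole (within 0.002) in both libraries, and in all 9 pairs the other was an AT2G07 locus. The reads of ATMG01360 (cox1) and ATMG00670 were already whole in wild type, and those of ATMG00960 (ccmFN2) in the jmj16-labelled library. For these loci only 1 library had fractions to match. Summing the pair left 3 of 5 calls standing, those of ATMG00670 and ATMG00960 among them, and ended 2. The share of loci called was 38.9% among the 18 with whole reads (4 higher, 3 lower). Among the 44 with divided reads it was 38.6% (9 higher, 8 lower), against 17.9% of all measured loci.

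The deposited identifiers are not paired with gene symbols in the reference, so names are given only to 14 loci whose length belongs to no other ATMG locus, equals that of exactly 1 protein-coding mitochondrial gene in the reference, and whose name in general use is the same. Of these 14, 13 were measured. Among them 2 were higher (15.4%, against 7.22% of all measured loci), 5 lower (38.5%, against 10.6%) and 6 neither. The remaining 49 measured loci had 11 higher (22.4%), 6 lower (12.2%) and 32 neither.

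ATP synthase (complex V) held the only called gene among the named genes with whole reads. The subunit b gene atp4 (ATMG00640) had 202 reads in the jmj16-labelled library and 66 in wild type, or 37.2 and 16.0 TPM. Its log2 ratio was 1.13 (0.73 to 1.57), a 2.20-fold higher level. The catalytic-head subunit alpha gene atp1 (ATMG01190), the most read mitochondrial locus, had 719 reads in the jmj16-labelled library and 366 in wild type, or 34.3 and 23.0 TPM. Its log2 ratio of 0.50 (0.32 to 0.69) was below 2-fold and gave no call, and its reads were divided. The chromosome 2 locus AT2G07698, in general use described as a copy of atp1, had 219 and 179 reads. The 2 loci together gave a log2 ratio of 0.31 (0.16 to 0.47). Neither summed count was whole, and AT2G07698 is 2444 nt long against 1524 nt for atp1.

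Complex I, III and IV were each represented by 1 named gene, and their ratios differed. The complex I subunit gene nad9 (ATMG00070), with whole reads, had 48 reads in the jmj16-labelled library and 63 in wild type (9.0 and 15.6 TPM), and its log2 ratio of -0.86 (-1.44 to -0.30) lay just short of 2-fold. The gene cox1 (ATMG01360), which encodes the core subunit of cytochrome c oxidase (complex IV), had 335 and 218 reads (15.2 and 13.1 TPM) and a log2 ratio of 0.15 (-0.10 to 0.40). Its reads were completed by 1 AT2G07 locus, and summed with it they gave 357 and 223 reads and 0.21 (-0.04 to 0.46). The level of cox1 thus differed by less than counting error on either reckoning.

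The cytochrome b gene cob (ATMG00220), the only mitochondrially encoded subunit of complex III, had the largest difference of all measured mitochondrial loci, and its reads were divided. It had 3.31 reads in the jmj16-labelled library and 178 in wild type, or 0.22 and 15.3 TPM, a log2 ratio of -6.14 (-8.65 to -4.79). The chromosome 2 locus AT2G07727, in general use described as carrying a copy of cob although the reference gives it no product, had 279 reads in the jmj16-labelled library and 147 in wild type. Summed over the 2 loci there were 282 and 325 reads, a log2 ratio of -0.68 (-0.91 to -0.44), which gave no call. Neither sum was a whole number, so further transcripts shared reads with these loci. AT2G07727 is 3243 nt long and cob 1182 nt, so the sum can include reads from outside the gene. Which of the 2 genomes the reads came from cannot be told from the deposited tables.

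The genes of cytochrome c maturation, the system that carries and attaches heme to c-type cytochromes, fell into 2 groups. The 2 that were lower were ccmFN2 and ccmC. They stand next to each other in the reference order of genes with a symbol, tRNA genes left out. The gene ccmFN2 (ATMG00960), which encodes part of the heme lyase, had 37.0 reads in the jmj16-labelled library and 104 in wild type (6.19 and 22.9 TPM), a log2 ratio of -1.95 (-2.55 to -1.41). Its reads were completed by 1 AT2G07 locus, and the pair together had 37 and 136 reads, a log2 ratio of -2.34 (-2.92 to -1.82), which was also called lower. The heme-handling gene ccmC (ATMG00900) had 15.3 and 39.9 reads (1.78 and 6.14 TPM), a log2 ratio of -1.86 (-2.85 to -1.0). A nuclear transcript of equal length at AT2G07771, named ABCI5 in the reference, held the same estimated reads (within 0.001) in each library. The sums of the 2, 30.6 and 79.9, were not whole, so further transcripts shared reads with them.

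The other 2 genes of cytochrome c maturation showed no call. The gene ccmFN1 (ATMG00830), for another part of the heme lyase, follows ccmC in the same order of genes with a symbol. It had 267 reads in the jmj16-labelled library and 141 in wild type (18.0 and 12.6 TPM), a log2 ratio of 0.45 (0.15 to 0.75). Summed with the AT2G07 locus that completed its reads, the ratio was 0.28 (0.00 to 0.56). The transporter subunit gene ccmB (ATMG00110), with whole reads, had 70 and 36 reads (11.4 and 7.76 TPM) and a log2 ratio of 0.48 (-0.11 to 1.11).

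The ribosomal protein genes also moved apart, and all 4 measured ones had divided reads. The gene rps12 (ATMG00980), for a protein of the small subunit, had 32.1 reads in the jmj16-labelled library and 11.2 in wild type (15.1 and 6.96 TPM), a log2 ratio of 1.03 (0.04 to 2.21) whose interval reached almost to 0. It also had a nuclear transcript of equal length with the same estimated reads, at AT2G07675, and the sums of the 2, 64.2 and 22.4, were not whole. The small-subunit gene rps7 (ATMG01270) had 17.6 and 28.8 reads (5.4 and 11.7 TPM), a log2 ratio of -1.14 (-2.09 to -0.26). The large-subunit gene rpl16 (ATMG00080) had 118 and 120 reads (24.7 and 33.1 TPM), a log2 ratio of -0.50 (-0.87 to -0.12) and no call.

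The large-subunit gene rpl5 (ATMG00210) had opposite directions alone and in its pair. In the reference order of genes with a symbol, tRNA genes left out, only a pseudogene separates rpl5 from cob. On its own rpl5 had 4.65 reads in the jmj16-labelled library and 24.2 in wild type (0.91 and 6.27 TPM), a log2 ratio of -2.63 (-4.48 to -1.32). Together with AT2G07725, the locus whose fractions complete its own, it had exactly 180 and 92 reads and a log2 ratio of 0.49 (0.13 to 0.88). The pair was not called. AT2G07725 is 1662 nt long and rpl5 558 nt, so the sum can include reads from outside the gene. The gene rps4 (ATMG00290) had 0 reads in both libraries, while AT2G07734, in general use described as a copy of it, had 69.0 and 69.5 reads.

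**Figure D2:**
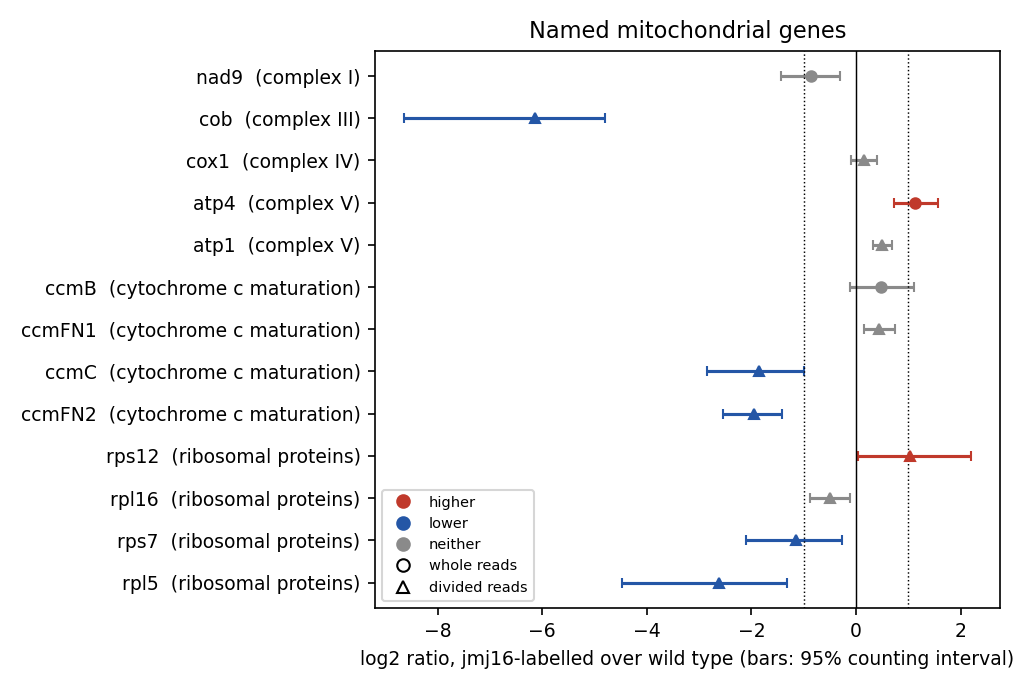
Log2 ratio, jmj16-labelled over wild type, for the 13 measured named genes, by role, with bars for the 95% counting interval, a solid line at equal levels and dotted lines at 2-fold. Only nad9, ccmB and atp4 had whole reads (circles), and of these atp4 was called, while cob and rpl5, at -6.14 and -2.63, had divided reads (triangles).

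Among loci without a name, those with whole reads give differences in which no split of reads was visible. The 2 largest higher ones were ATMG01130, with 43 reads in the jmj16-labelled library and 12 in wild type, and ATMG01370, with 118 and 35. Their log2 ratios were 1.33 (0.42 to 2.43) and 1.27 (0.73 to 1.87). The 2 largest lower ones were ATMG00570, with 19 reads in the jmj16-labelled library and 86 in wild type, and ATMG01120, with 10 and 20. Their log2 ratios were -2.62 (-3.45 to -1.92) and -1.44 (-2.73 to -0.31). In these 4 loci the counts of the 2 libraries differ by 2-fold or more after scaling, and 3 of them rest on 20 reads or fewer in at least one library.

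The mitochondrial locus most abundant per length, ATMG00030, did not differ beyond counting error. It had 436 reads in the jmj16-labelled library and 301 in wild type, or 353 and 321 TPM, and a log2 ratio of 0.06 (-0.15 to 0.28). It alone made up 21.4% and 22.0% of the mitochondrial TPM, although its share of mitochondrial reads was 6.11% and 6.37%. Its model is 324 nt long with an effective length of 75.1 nt, so its TPM leans on a small divisor. Across all 49 measured unnamed loci the log2 ratio had a median of 0.60, against -0.50 for the 13 named ones. It ran from -3.41 (ATMG01275) to 3.04 (ATMG00490), and both of these loci had divided reads.

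The 60 loci under 20 reads had at most 15 reads in the jmj16-labelled library and 15 in wild type, medians of 2 and 1 reads, and 178 and 133 reads in all, and 8 of them had 0 reads in both. With no minimum of reads, 2 of them would be called higher and 2 lower, and the median log2 ratio of the mitochondrial loci would be 0.08.

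The AT2G07 loci, among which the nuclear copy lies, also had calls in both directions. Of 124 loci 58 were measured, with 10 higher (17.2%, against 7.22% of all measured loci), 9 lower (15.5%, against 10.6%) and a median log2 ratio of 0.38. Single partners could differ from their mitochondrial locus, as AT2G07725 with 0.89 beside rpl5 with -2.63. Together the ATMG and AT2G07 loci had 16038 reads in the jmj16-labelled library and 11002 in wild type, 0.116% and 0.103% of each total, a ratio of 1.12 (1.09 to 1.15). AT2G07 loci outside the copied stretch are included in these sums.

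In the chloroplast genome, the other organelle genome of these leaves, most loci had a log2 ratio below 0. Of 88 loci 87 were measured, 0 were called higher, against 7.22% of all measured loci, and 22 (25.3%) were called lower, against 10.6%. Their median log2 ratio was -0.51 (-0.71 to -0.42). Chloroplast loci took 1.56% of the reads in the jmj16-labelled library and 2.30% in wild type. The spread among them was narrow, with a middle 50% of 0.74 log2 units, against 1.64 for the mitochondrial loci. The difference between the 2 organelle genomes has no replicate check.

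**Figure D3:**
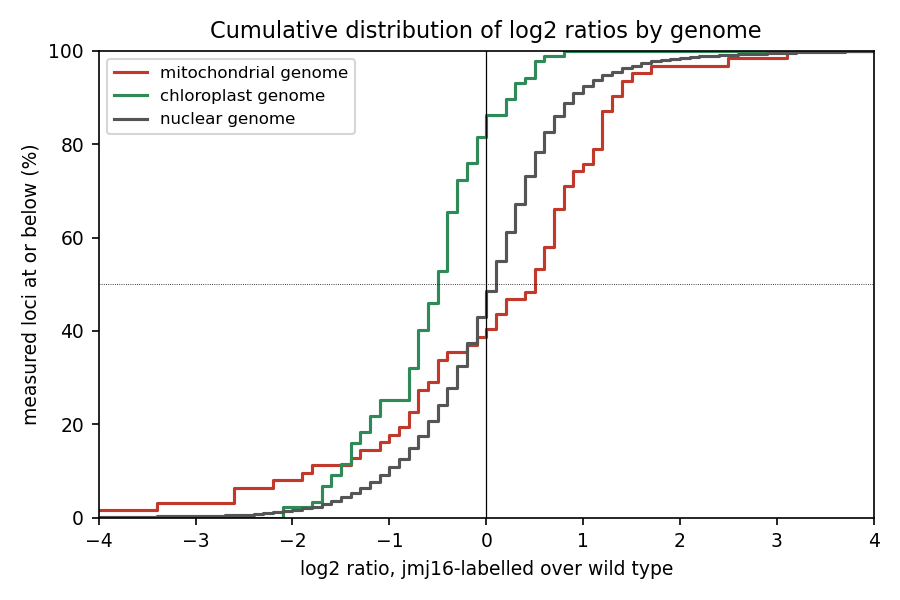
Cumulative share of measured loci (vertical, percent) at or below each log2 ratio, jmj16-labelled over wild type (horizontal), for the mitochondrial (62 loci), chloroplast (87) and nuclear (17002) genomes. The chloroplast curve lies left of 0 for most loci, with a median of -0.51, and the mitochondrial curve is the widest, with a median of 0.46.

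Nuclear genes for the same complexes had a similar median and a narrower spread. Over 5 lists of complex subunits and assembly factors, 48 of 50 measured genes had a log2 ratio above 0 (96.0%, against 51.2% of all measured loci), with a median of 0.48 (0.35 to 0.63), and a middle 50% that spanned 0.43 log2 units. Of the 50, 3 (6.00%) were called higher, against 7.22% of all measured loci, and 0 were called lower, against 10.6%. The 13 complex I genes had a median of 0.35, the 7 complex II genes 0.41, the 11 genes of complex III and cytochrome c 0.74, the 11 complex IV genes 0.63 and the 8 complex V genes 0.41. The 3 called genes were CYTC-2, for the electron carrier cytochrome c, AT5G25450 of the complex III list, and AT3G15640 of the complex IV list. CYTC-2 had 182 reads in the jmj16-labelled library and 64 in wild type, a log2 ratio of 1.03 (0.62 to 1.47). AT3G15640 had 638 and 222 reads, a log2 ratio of 1.05 (0.83 to 1.28), and AT5G25450 had 34 and 5 reads, a log2 ratio of 2.18 (0.93 to 4.01). Less the trend with transcript length over nuclear loci, CYTC-2 and AT3G15640 were at 0.67 and 0.79, below 2-fold. The 2 most read genes of the complex IV list, AT4G37830 and AT1G80230, had 2616 and 884 reads in the jmj16-labelled library against 1231 and 413 in wild type, with log2 ratios of 0.62 and 0.63.

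For the complexes that both genomes encode, the nuclear values can be set beside the mitochondrial ones. In complex V the 2 most read nuclear genes were AT5G08670 of the beta subunit and AT5G47030. They had 3747 and 2723 reads in the jmj16-labelled library against 2486 and 1879 in wild type. Their log2 ratios were 0.12 (0.05 to 0.19) and 0.06 (-0.02 to 0.15), beside 1.13 for mitochondrial atp4 and 0.50 for atp1. These 2 ratios were the lowest of the 8 nuclear complex V genes, which had a median of 0.41 and reached 0.67. In complex I the most read were the flavoprotein gene CI51, with 3158 and 1915 reads and a log2 ratio of 0.25 (0.17 to 0.33), and AT5G11770, with 2441 and 1206 reads and 0.55 (0.45 to 0.65), beside -0.86 for mitochondrial nad9. Of the 13 nuclear complex I genes 11 were above 0. In complex II, which Arabidopsis encodes entirely in the nucleus, SDH5 had 1935 and 1004 reads and a log2 ratio of 0.47 (0.36 to 0.59), and SDH4 had 785 and 425 reads and 0.41 (0.24 to 0.59).

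Nuclear genes that act on mitochondrial RNA and DNA had calls in both directions. Of 27 listed genes 26 were measured. Of these, 4 were higher (15.4%, against 7.22% of all measured loci) and 4 lower (15.4%, against 10.6%), 18 had no call, and the median was -0.01 on the log2 scale. Less the trend with transcript length, 4 were higher and 2 lower and the median was 0.43, with MSH1 at -0.25 and AT5G04050 at -0.45. The 4 higher genes were not the same ones, since OTP43 fell to 0.96, below 2-fold, and AT5G14580 came to 1.38. The share of all measured loci called after this subtraction is not given. The genes named next are those called without it. The higher ones were RIP1, an RNA editing factor, with 3460 reads in the jmj16-labelled library and 1006 in wild type, BIR6 and OTP43, pentatricopeptide repeat proteins needed for splicing of nad7 and nad1, with 63 and 55.3 reads against 20 and 18.8, and the RNA helicase gene PMH1, with 140 against 48.3. Their log2 ratios were 1.31, 1.16, 1.04 and 1.06. The lower ones were RPF1, an RNA processing factor, with 17 reads against 36, MSH1 and RECA3, which restrain recombination of the mitochondrial genome, with 19 and 45.5 reads against 29 and 67.4, and AT5G04050 with 31 against 46. Their log2 ratios were -1.53, -1.07, -1.04 and -1.03. MGP3, the locus AT1G68990 of the mitochondrial RNA polymerase, had 127 and 97 reads and a log2 ratio of -0.08.

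**Figure D4:**
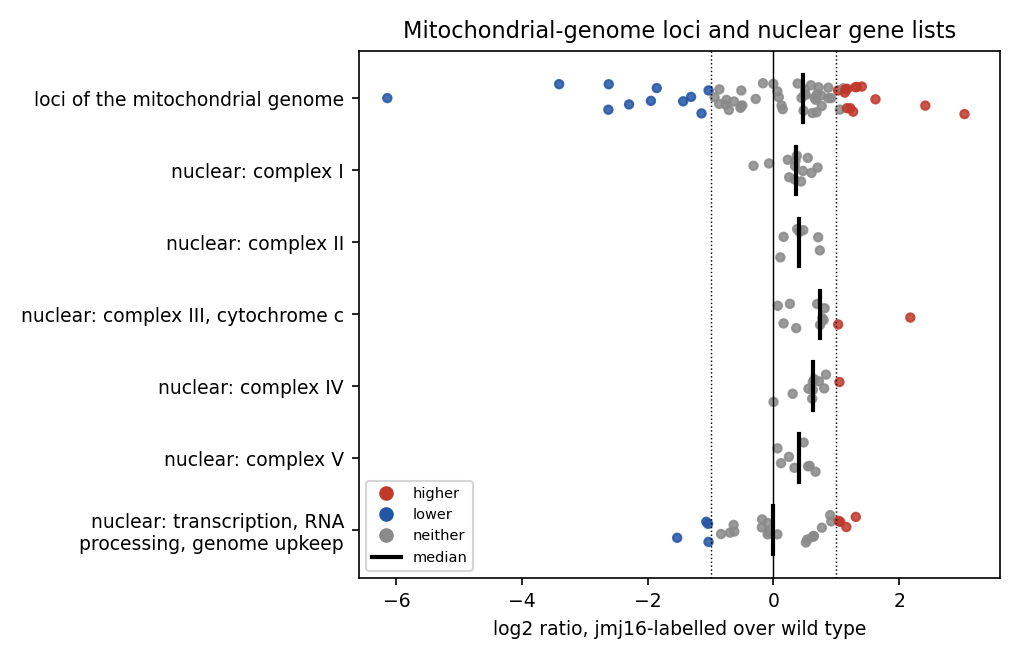
Log2 ratio, jmj16-labelled over wild type, for the 62 measured mitochondrial loci and for the measured members of 6 nuclear gene lists, coloured by call, with a bar at each median. The nuclear complex genes sit mostly between 0 and 1, while the mitochondrial loci run from -6.14 to 3.04.

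Transcript length moved with the ratio in these libraries. Over 17002 nuclear loci Spearman's rho between length and log2 ratio was -0.45, and the nuclear trend at the median mitochondrial length of 589.5 nt was 0.42, close to the mitochondrial median of 0.46. Among the 62 mitochondrial loci themselves rho was -0.02. All loci of a library share its depth and its RNA quality, so these values are descriptions. After subtraction of the nuclear trend the mitochondrial median was 0.11, and 4 loci were higher and 15 lower. The share of all measured loci called after this subtraction is not given, so these counts have no background. The genes atp4, at 0.71, and rps12, at 0.64, were no longer called. The 4 that stayed higher, ATMG00490, ATMG00690, ATMG01090 and ATMG01280, had no name and had divided reads. All 11 lower loci stayed lower, but this was fixed in advance. The trend was positive at the lengths of all 11, so its subtraction could only lower their ratios further. The median of the nuclear complex genes was 0.30 after the same subtraction. The part of length in these differences was not tested.

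**Figure D5:**
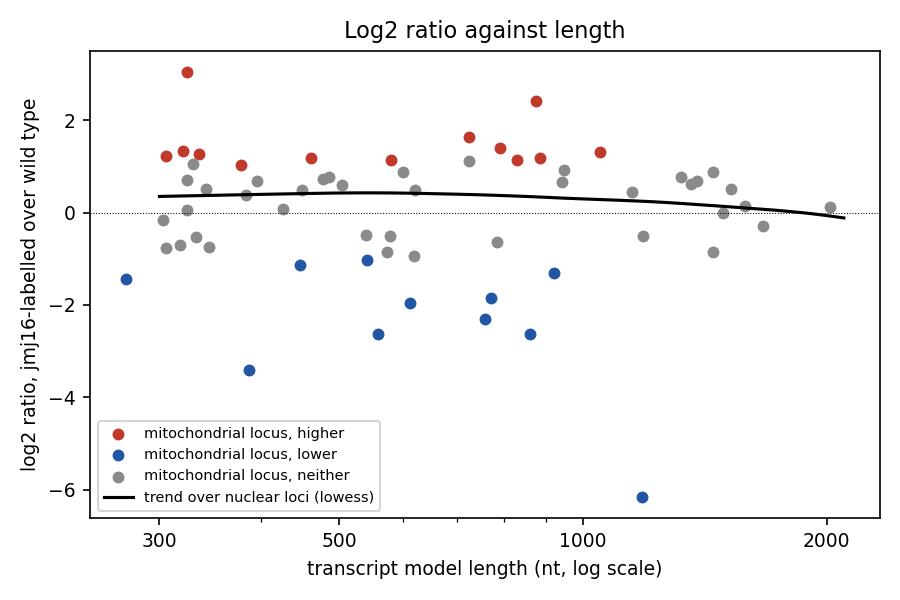
Log2 ratio, jmj16-labelled over wild type (vertical), of the 62 measured mitochondrial loci against the length of the transcript model (horizontal, nt, log scale), with the smoothed trend over nuclear loci as a line. The nuclear trend is 0.42 at the median mitochondrial length of 589.5 nt, and both higher and lower loci occur over most of the length range.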

How the data were processed

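Leaf RNA was measured in 2 RNA-seq libraries, and the 4 chromatin immunoprecipitation samples were not analysed here. The authors deposited, per the file headers, a table per library in Salmon's layout, with an estimated count (not normalized, not always whole) and TPM for each of 48359 transcript models. Salmon and the build TAIR10 are named, without version, per the submitters' processing notes. No source used here gives the read layout, strand setting, trimming or RNA selection. Effective lengths were identical in both libraries. Without strand, overlapping genes cannot be told apart.

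Counts and TPM were summed per locus and counts rounded. Library sizes were scaled by TMM (edgeR 4.0.16, R 4.3.3), with factors of 1.03 for the jmj16-labelled library and 0.969 for wild type, and log2 ratios were taken after adding 0.5 to each count. Intervals are exact (Clopper-Pearson) at 95%. For medians they are exact binomial intervals of the order statistics. Calls are defined in the report. The procedure was tested on simulated Poisson counts, with 4-fold changes at well-read loci only. That simulation does not check calls near 2-fold, at low counts or with divided reads. Alternatives used DESeq2 1.42.0 size factors, total counts, nuclear loci or mitochondrial reads alone for scaling, log2(TPM + 1), an added count of 5, other minima and folds, and a length correction (lowess, span 0.3). Python 3.11.15 was used, with SciPy 1.17.1 and statsmodels 0.14.6.

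Names and symbols came from RefSeq TAIR10.1 gene tables, whose assembly name differs from TAIR10, so no coordinates are given. Of 16 unique length matches, 14 were used and 2 went against the name in general use. The description of 4 chromosome 2 loci as copies was likewise taken from general use. All named genes are described in full, and so are, of each nuclear list, up to 4 called members or the 2 most read (MGP3 was added after its values were seen). The rule also asked for every called unnamed locus and the 5 most read ones by identifier. Against this rule, only the 2 largest higher and 2 largest lower ones with whole reads, and the most abundant per length, are given in full. The members and lists were chosen with earlier results of these data known.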

Additional observations from a re-analysis of the deposited data

How the results depend on the processing

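Scaling by median of ratios, by total counts or over nuclear loci gave 13 or 14 mitochondrial loci higher and 10 or 11 lower, and scaling to the mitochondrial reads alone ended 3 of 24 calls, rps12 among them. The higher and lower counts were 6 and 6 with a minimum of 100 reads, 2 and 5 at 4-fold, 22 and 16 at 1.5-fold, 4 and 15 with the length correction, and 4 and 3 over loci with whole reads. With no minimum of reads they were 15 and 13, and the median log2 ratio was 0.08 in place of 0.46. Adding 5 to each count gave 9 and 11, and log2(TPM + 1) gave 13 and 9. The log2 ratio of rpl5 turned to 0.49 when summed with AT2G07725, and the cause was not tested. The mitochondrial share stayed between 1.12-fold and 1.16-fold higher under the alternatives run. These shares are of unscaled totals, while the ratios of single loci use TMM scaling.

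For the 6 nuclear lists the main counts were 7 higher and 4 lower. They were 3 and 1 with 5 added, 4 and 1 with a minimum of 100 reads, 29 and 8 at 1.5-fold, and 1 and 0 at 4-fold. The lower count alone was 1 with total counts, 0 with log2(TPM + 1) and 2 with the length correction, which also brought the median to 0.33 from 0.47. The cause was not tested. The named genes made up 26.2% of mitochondrial reads in the jmj16-labelled library and 29.5% in wild type. Without atp1, the most read locus, they made up 17.9% and 23.6%, over whole-read loci 20.02% and 14.9%, and as a share of TPM 10.9% and 13.0%.

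The alternatives with whole reads, summed pairs and chromosome 2 loci were chosen after seeing the data. They stand in for 2 planned ones that were not run, since the reference used here gives neither products nor sequences for these loci. No paired analysis was possible because there is 1 library per genotype. Low read counts limit what can be said of the mitochondrial loci, 60 of which stay under 20 reads. The cause of the low counts was not tested.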
